A study of Mus musculus with 16 samples.

Results

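The 39 genes described here carry out DNA replication and cell division. They were chosen by symbol, at any level, and all 39 were listed among the 13715 genes of the 8-week table and among the 12922 genes of the reversal table. They fall into 2 G1 cyclins, 11 replication genes (7 of the helicase and clamp, 4 of nucleotide supply), 24 mitosis genes and 2 further genes, Stmn1 and Hmgb2, whose products are not confined to dividing cells. RNA from frozen mouse livers was sequenced in bulk, in 4 groups of 4 mice that all received carbon tetrachloride (CCl4), a hepatotoxin given by intraperitoneal injection. In the first pair of groups, Mfap2-/- (knockout) and Mfap2+/+ (wild-type) mice were sampled at the end of 8 weeks of CCl4. In the second pair, called reversal in what follows, CCl4 was stopped after 8 weeks and the mice of both genotypes were sampled 4 weeks later. Mfap2 encodes microfibril-associated glycoprotein 1, a protein of the extracellular matrix. The sources used here do not state how the Mfap2 allele was made, nor the strain, age and sex of the mice, and mice without CCl4 were not analysed here.

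Most hepatocytes of an adult liver are quiescent and can re-enter the cell cycle after injury. Division starts with D- and E-type cyclins, which lead to release of E2F factors and to transcription of replication genes. Later in the cycle the mitotic genes are switched on together, through the CHR and CCAAT elements of their promoters, which are bound by complexes that hold MuvB, B-MYB, FOXM1 and NF-Y. Replication and mitosis genes can thus be read as an early and a late set.

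Promoter sequences of the 2 sets were compared first, to show which elements the members share. RefSeq promoters (GRCm38.p6, 250 bases before to 50 after each start) were matched for 32 of the 39 genes by symbol. Searched on both strands were the CHR (TTTGAA), the CCAAT box (CCAAT) and an E2F site in 4 spellings (TTTCCCGC, TTTCGCGC, TTTGCCGC and TTTGGCGC). The CHR was in the window of 16 of 20 mitosis genes (80%), in 1 of 10 replication genes (10%) and in 17.9% of all 32851 promoters searched. The CCAAT box was in 18 of 20 mitosis genes (90%), 8 of 10 replication genes (80%) and 37.4% of all promoters. One of the E2F spellings was in 4 of 10 replication genes (40%), in 1 of 20 mitosis genes (5%) and in 2.26% of all promoters. A member gene was counted if any of its starts held the motif, while the shares of all promoters count each start. Mcm7 was counted through a start with 2 E2F matches, and its further start had 0. The 160 bases before the start are shown 5′ to 3′ for 4 mitosis genes that hold both a CHR and a CCAAT box there. Also shown are 2 helicase genes that hold E2F spellings and CCAAT boxes but no CHR. For Prc1 a further start is listed, and the 160 bases before it (chr7:80294291-80294450) hold a CCAAT box but no CHR. Capitals mark the motifs on either strand, so that a CHR also reads TTCAAA and a CCAAT box ATTGG. The Cdk1 window also holds 1 E2F spelling, TTTCGCGC. Where capitals run on, as in Mcm5 and Mcm6, E2F spellings on opposite strands overlap. A match describes the letters and is not a site shown to be bound.
Ube2c chr2:164769769-164769928 plus strand: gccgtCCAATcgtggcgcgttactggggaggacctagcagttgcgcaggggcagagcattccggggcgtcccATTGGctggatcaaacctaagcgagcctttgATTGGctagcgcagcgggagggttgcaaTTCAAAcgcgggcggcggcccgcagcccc
Cdc20 chr4:118437344-118437503 minus strand: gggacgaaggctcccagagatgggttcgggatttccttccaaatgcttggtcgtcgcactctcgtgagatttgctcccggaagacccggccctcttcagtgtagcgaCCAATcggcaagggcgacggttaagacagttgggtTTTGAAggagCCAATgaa
Prc1 chr7:80294316-80294475 plus strand: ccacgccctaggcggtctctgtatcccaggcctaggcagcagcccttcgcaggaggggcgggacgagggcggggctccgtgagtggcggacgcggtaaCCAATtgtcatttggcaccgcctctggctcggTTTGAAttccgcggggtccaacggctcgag
Cdk1 chr10:69352913-69353072 minus strand: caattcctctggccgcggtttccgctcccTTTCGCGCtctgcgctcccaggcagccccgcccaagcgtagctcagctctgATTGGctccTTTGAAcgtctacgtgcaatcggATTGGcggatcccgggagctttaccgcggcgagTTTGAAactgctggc
Mcm5 chr8:75109349-75109508 plus strand: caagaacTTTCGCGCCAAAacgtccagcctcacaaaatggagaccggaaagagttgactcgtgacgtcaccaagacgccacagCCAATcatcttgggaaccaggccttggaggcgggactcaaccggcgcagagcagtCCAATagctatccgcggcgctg
Mcm6 chr1:128359706-128359865 minus strand: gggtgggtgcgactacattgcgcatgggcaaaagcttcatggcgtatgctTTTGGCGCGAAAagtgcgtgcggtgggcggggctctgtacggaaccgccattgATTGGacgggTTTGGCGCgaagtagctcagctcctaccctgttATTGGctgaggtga

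Mfap2 was listed at 0 in all 8 knockout libraries, against 0.902 to 3.07 FPKM in wild-type mice at 8 weeks and 0.17 to 0.47 FPKM in wild-type mice after reversal. FPKM, the unit of all levels here, scales the fragments of a gene by transcript length and by sequencing depth. Albumin (Alb), the defining hepatocyte transcript, was between 16731 and 46316 FPKM in the 16 libraries. Genotypes were compared within each stage with limma on log2(FPKM + 1), where the gene averaged 0.5 FPKM or more. Each difference is given as knockout minus wild type in these log2 units, and the added 1 makes it smaller than the true change for low genes. The median gene had a difference of 0.23 at 8 weeks and of 0.10 after reversal. The share of tested genes with a positive difference was 82.6% at 8 weeks and 70.7% after reversal, so a gene higher in the knockout by less than those medians lay below the typical gene. A median-ratio scaling and a quantile normalization, which bring the median gene close to 0, are given beside the counts of directions of members and lists. Wild-type mice 1 and 2 at 8 weeks, and wild-type mouse 1 with knockout mice 2 and 3 after reversal, stood apart on the first principal component of all genes, and counts are also given without them. In bulk tissue, fewer cells of a type and less RNA per cell cannot be told apart.

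At 8 weeks the replication helicase was the group with the most uniform direction, while the mitotic genes were spread within both genotypes. All 6 Mcm genes and Pcna were higher in the knockout, as were 82.6% of all genes tested. The 24 mitosis genes divided into 11 higher and 13 lower. None of the 37 members tested passed an adjusted p of 0.05, where 1 of 11928 genes did (0.00838%). Leaving out wild-type mouse 4 raised that count of genes to 1465 and leaving out knockout mouse 2 to 32, with 0 members among them. With no adjustment, Mcm5 and Mcm3 had p under 0.05 in the direction of the knockout, 2 of 37 against 12.8% of all genes tested, and 0 of 37 in the other direction against 1.62%. All 4 knockout mice lay above all 4 wild-type mice for 3 members (Mcm2, Mcm3 and Mcm4), against 6.29% of all genes tested, and below them for 0, against 0.612%. The median difference of the 39 members was 0.04, below that of the median gene.

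Mcm2 to Mcm7 encode the subunits of the helicase that is loaded at replication origins and unwinds DNA in S phase. Mcm3 (chr1:20802968-20820312, mm10, minus strand) had 6.57, 7.40, 5.19 and 7.06 FPKM in knockout mice 1 to 4, against 3.64, 4.70, 5.01 and 4.54 FPKM in wild-type mice 1 to 4. The groups did not overlap, with the lowest knockout mouse just above the highest wild-type mouse. The difference was 0.46 ± 0.20 (SE, limma adjusted p = 0.31). Mcm5 had the largest difference of the 39 genes, with 3.32, 4.77, 3.497 and 3.00 FPKM in knockout mice and 2.07, 3.18, 2.44 and 1.14 FPKM in wild-type mice. Only knockout mouse 4 was below a wild-type mouse (mouse 2), and the difference was 0.56 ± 0.23 (SE, limma adjusted p = 0.29). Mcm4 had 2.48, 2.84, 3.25 and 2.99 FPKM in knockout mice and 1.98, 1.90, 2.02 and 2.35 FPKM in wild-type mice, again without overlap. Mcm2 had 4.00, 4.18, 4.199 and 3.81 FPKM in knockout mice and 2.02, 3.27, 3.80 and 2.66 FPKM in wild-type mice, where knockout mouse 4 and wild-type mouse 3 nearly met. Mcm6 and Mcm7 overlapped, with wild-type mouse 4 at 14.6 FPKM of Mcm6 above every knockout mouse (9.57 to 13.4 FPKM).

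Pcna, the sliding clamp that holds DNA polymerases on the template, had the highest level per length of the 39 genes at 8 weeks. It had 42.5, 36.3, 39.7 and 38.7 FPKM in knockout mice and 27.3, 29.4, 31.2 and 37.4 FPKM in wild-type mice. Only wild-type mouse 4 reached into the knockout range, and the difference was 0.32 ± 0.19 (SE, limma adjusted p = 0.45). The median of the 6 Mcm genes was 0.40, with a range of 0.34 (Mcm4) to 0.56 (Mcm5). It was 0.13 after either scaling, with 6 of 6 still higher, and 0.28 without wild-type mice 1 and 2. After the scalings all knockout mice lay above all wild-type mice for 0 (median-ratio) and 1 (quantile) of the 39 members, where the shares of all genes were 2.97% and 3.03%.

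**Figure D1:**
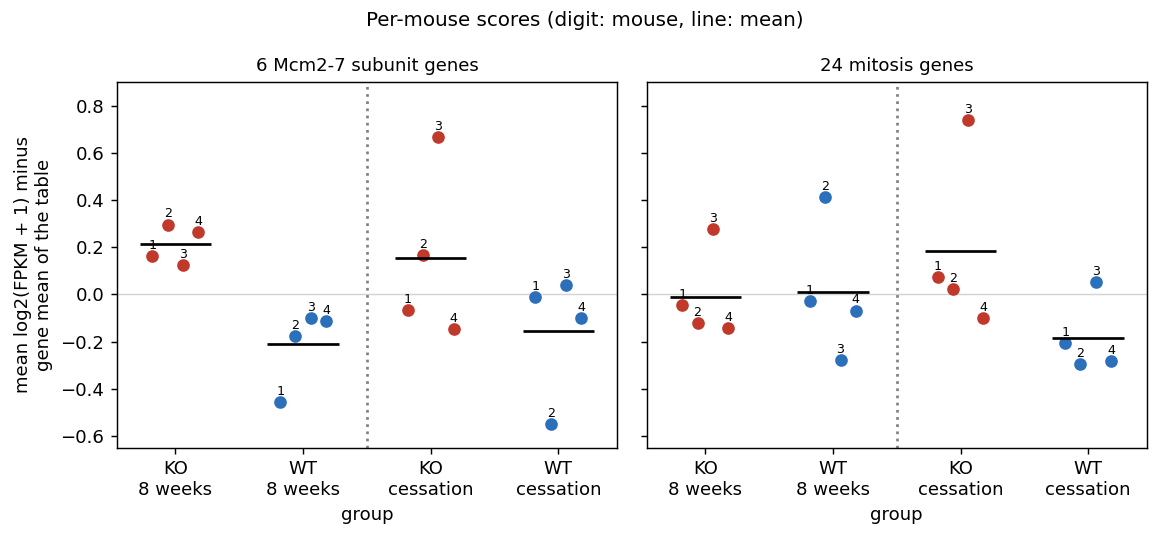
Per-mouse scores of the 6 Mcm genes (left) and the 24 mitosis genes (right), in log2 units, each averaging over genes the deviation of a mouse from the mean of its stage. Points are mice with their numbers, knockout (KO) in red and wild type (WT) in blue, and lines are group means. At 8 weeks the Mcm scores of knockout mice (0.13 to 0.30) and wild-type mice (-0.46 to -0.10) do not overlap as deposited. In those values the median gene was itself higher in the knockout, by 0.23. The median Mcm difference was 0.40 as deposited and 0.13 after either scaling, and no scores were made from scaled values. The highest mitosis score after cessation, 0.74, belongs to knockout mouse 3.

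The 4 enzymes of nucleotide supply did not share the Mcm pattern at 8 weeks. Rrm1, the large subunit of ribonucleotide reductase, averaged 4.44 ± 0.177 FPKM in knockout and 3.91 ± 0.663 FPKM in wild-type livers (SD, n = 4 each). Rrm2, its S-phase subunit, had 2.39, 3.51, 3.24 and 2.19 FPKM in knockout mice and 2.54, 6.17, 2.24 and 4.67 FPKM in wild-type mice. Its difference of -0.29 ± 0.26 (SE, limma adjusted p = 0.56) was the lowest of the 39 genes. Tyms, thymidylate synthase, averaged 2.54 ± 0.436 FPKM in knockout and 2.87 ± 0.820 FPKM in wild-type livers (SD, n = 4 each). Tk1, cytosolic thymidine kinase, averaged 9.22 ± 2.74 FPKM in knockout and 9.46 ± 4.31 FPKM in wild-type livers. Each of these 4 genes overlapped between the genotypes.

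The G1 cyclins varied more within than between genotypes. Ccnd1, cyclin D1, had 15.97, 20.8, 29.2 and 13.9 FPKM in knockout mice and 29.8, 23.03, 15.4 and 9.72 FPKM in wild-type mice. The wild-type range enclosed that of the knockout, and the difference was 0.09 ± 0.32 (SE, limma adjusted p = 0.88). Ccne1, cyclin E1, averaged 1.46 ± 0.578 FPKM in knockout and 1.68 ± 0.562 FPKM in wild-type livers (SD, n = 4 each). Wild-type mouse 1 was the highest of the 8 libraries for both cyclins.

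The mitosis genes were low at 8 weeks, with group means between 0.216 (Bub1) and 2.86 FPKM (Ube2c) in knockout livers and between 0.237 (Bub1) and 3.46 FPKM (Ube2c) in wild-type livers. Their median difference was -0.01, and the values of single mice set it. Wild-type mouse 2 was the highest of the 8 libraries for 15 of the 24 genes, knockout mouse 3 for 6, and wild-type mouse 3 the lowest for 11. Ube2c, the ubiquitin-conjugating enzyme of the anaphase-promoting complex, had 2.71, 2.27, 4.65 and 1.83 FPKM in knockout mice and 1.66, 7.20, 2.37 and 2.64 FPKM in wild-type mice. Cdc20, which activates that complex, had 2.08, 1.66, 2.16 and 1.403 FPKM in knockout mice and 1.84, 3.67, 0.297 and 1.98 FPKM in wild-type mice. For both genes wild-type mouse 2 was the highest library. Mki67, the gene of the proliferation marker Ki-67, had 0.63, 0.695, 1.71 and 0.862 FPKM in knockout mice and 0.878, 1.47, 0.664 and 0.982 FPKM in wild-type mice. Its difference was -0.03 ± 0.20 (SE, limma adjusted p = 0.93).

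The mitotic cyclins and kinases differed little between the genotypes at 8 weeks. Cdk1, the mitotic kinase, averaged 1.36 ± 0.336 FPKM in knockout and 1.41 ± 0.620 FPKM in wild-type livers (SD, n = 4 each). Of its cyclins, Ccna2 averaged 1.21 ± 0.765 FPKM in knockout and 1.22 ± 0.620 FPKM in wild-type livers. Ccnb1 averaged 0.594 ± 0.261 FPKM in knockout and 0.561 ± 0.414 FPKM in wild-type livers, and Ccnb2 0.964 ± 0.323 FPKM in knockout and 1.26 ± 0.540 FPKM in wild-type livers. These means lay within 1 SD of each other. Plk1, the polo-like kinase of mitotic entry, had the lowest difference of the 24 genes, -0.22 ± 0.22 (SE, limma adjusted p = 0.59), with wild-type mouse 2 at 2.04 FPKM and the other 7 mice between 0.416 and 0.965 FPKM. Aurka, the centrosomal Aurora kinase, had the highest, 0.26 ± 0.21 (SE, limma adjusted p = 0.54), with 1.63, 2.34, 3.15 and 3.25 FPKM in knockout mice and 2.08, 2.09, 2.23 and 1.46 FPKM in wild-type mice. Bub1 and Kif11 were under the filter and were not tested.

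The remaining spindle and chromosome genes at 8 weeks had differences between -0.22 (Birc5) and 0.18 (Kif23). Birc5, survivin, of the chromosomal passenger complex, had 1.81, 1.05, 3.06 and 1.08 FPKM in knockout mice and 2.945, 3.835, 0.868 and 1.51 FPKM in wild-type mice. Among the mitotic kinesins, Kif20a averaged 0.566 ± 0.127 FPKM in knockout and 0.691 ± 0.345 FPKM in wild-type livers, and Kif22 1.09 ± 0.386 FPKM in knockout and 1.36 ± 0.522 FPKM in wild-type livers (SD, n = 4 each). Kif23 averaged 0.77 ± 0.230 FPKM in knockout and 0.55 ± 0.0952 FPKM in wild-type livers. None of the 12 genes of this group separated the genotypes, and Cdca8, Prc1, Nusap1, Tpx2, Racgap1 and Top2a had differences between -0.09 (Tpx2) and 0.13 (Prc1). Stmn1 averaged 18.7 ± 2.35 FPKM in knockout and 19.9 ± 6.33 FPKM in wild-type livers (SD, n = 4 each).

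The count of mitosis genes higher at 8 weeks changed with the mice and the scaling. It was 23 of 24 without wild-type mice 1 and 2 (median 0.14), 21 without wild-type mouse 2, and 5 when either knockout mouse 3 or wild-type mouse 3 was left out. The median of all genes tested ranged from 0.15 to 0.32 with 1 mouse left out. After median-ratio scaling 2 of 24 mitosis genes were higher (median -0.18), and after quantile normalization 0 of 24 (median -0.26). Of all genes tested, 46.8% and 49.5% were higher after these scalings. The median gene stood at -0.019 after the first scaling and at -0.0029 after the second, and no mitosis gene passed the test in either fit. Over all 39 members, 22 were higher as deposited, 9 after median-ratio scaling, 7 after quantile normalization and, leaving out wild-type mice 1 and 2, 36.

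Marker levels of other cell types at 8 weeks are given beside the Mcm values, and their part in them was not tested. No marker of any list passed an adjusted p of 0.05, and the sums of the 5 lists that follow overlapped between the genotypes. Summed hepatocyte markers were 28612 to 44288 FPKM in knockout and 41222 to 71583 FPKM in wild-type livers, with 10 of 10 genes lower. Summed macrophage and monocyte markers were 757 to 1556 FPKM in knockout and 507 to 881 FPKM in wild-type livers, with 11 of 12 genes higher. For stellate cells and fibroblasts the sums were 290.02 to 490.4 FPKM in knockout and 206 to 360.2 FPKM in wild-type livers, with 8 of 8 genes higher. For erythroid cells they were 4172 to 10089 FPKM in knockout and 1184 to 7420 FPKM in wild-type livers, with 8 of 9 genes higher. For endothelium they were 71.4 to 109 FPKM in knockout and 42.4 to 71.9 FPKM in wild-type livers, with 8 of 8 genes higher. Among tested genes of any kind, the share with a higher knockout level was 82.6% at this stage. After either scaling each of these marker counts changed by at most 1 gene, while that share became 46.8% (median-ratio) and 49.5% (quantile). No marker was at 0 in all 8 libraries. The mouse with the highest mitosis score at 8 weeks, wild-type mouse 2, had the highest hepatocyte sum, and the second, knockout mouse 3, had the lowest.

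**Figure D2:**
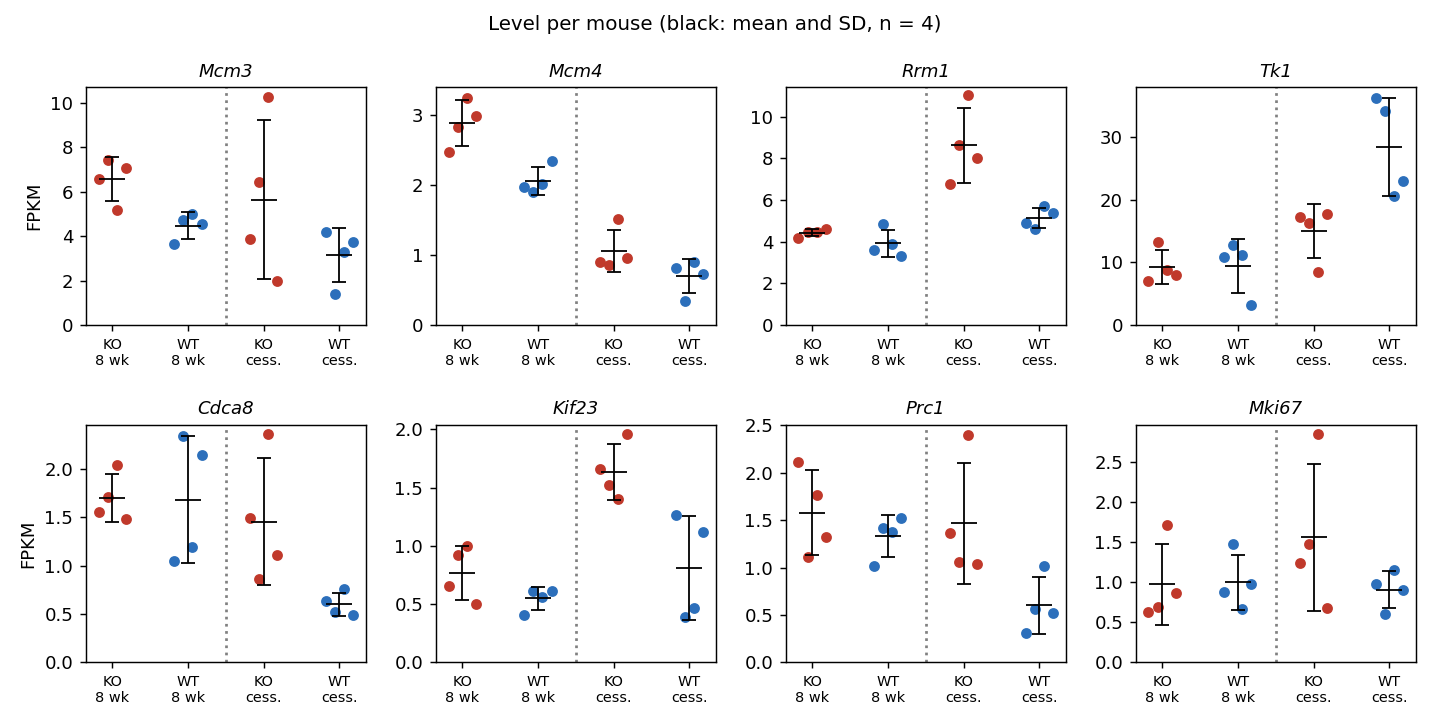
Level of 8 members in each mouse in FPKM, with knockout (KO, red) left of wild type (WT, blue) at the end of CCl4 (8 weeks) and after cessation. Black marks are the mean and SD of 4 mice. Mcm3 and Mcm4 do not overlap at 8 weeks, and after cessation Rrm1, Cdca8, Kif23 and Prc1 lie above and Tk1 below the wild-type mice in every knockout mouse.

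After reversal the direction was shared by nearly all members. Of the 39 genes, 36 were higher in the knockout, all 24 mitosis genes among them, against 70.7% of all genes tested. The 3 lower genes (Tk1, Rrm2 and Tyms) all belong to nucleotide supply. None of the 35 members tested passed an adjusted p of 0.05, and of all 11032 genes tested 0% did. With no adjustment, 7 members had p under 0.05 and were higher in the knockout, against 6.95% of all genes tested, and 1 (Tk1) was lower, against 1.5%. All knockout mice lay above all wild-type mice for 4 members (Rrm1, Cdca8, Kif23 and Prc1), against 3.62% of all genes tested, and below them for Tk1, against 0.988%. The count of 4 became 14 when wild-type mouse 3 was left out and 11 when knockout mouse 4 was, where the shares of all genes were 10.7% and 6.62%. The median difference of the 39 members was 0.33, where the median gene stood at 0.10.

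Both the size of the differences and the count of higher members depended on knockout mouse 3. This mouse had the highest level of the 8 libraries for 23 of the 24 mitosis genes and for 31 of the 39 members. The 24 mitosis genes summed to 33.7, 30.6, 76.1 and 26.2 FPKM in knockout mice 1 to 4, against 23.25, 19.1, 33.75 and 19.1 FPKM in wild-type mice 1 to 4. Without knockout mouse 3, 19 of 24 mitosis genes were higher with a median of 0.16 in place of 0.37, and 31 of 39 members with a median of 0.15 in place of 0.33. Leaving out wild-type mouse 1 left 32 of 39 members higher, with a median of 0.31. Without wild-type mouse 1 and knockout mice 2 and 3 together, the counts were 18 of 24 (median 0.14) and 29 of 39 (median 0.13). The median of all genes tested ranged from 0.079 to 0.15 with 1 mouse left out. The share of all genes higher was 70.7% with all mice, and was not counted with mice left out. After the median-ratio and quantile scalings, 23 and 22 of the 24 mitosis genes were higher (medians 0.29 and 0.23), and 33 and 32 of the 39 members. Of all genes tested, 47.7% and 47.8% were higher after these scalings.

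**Figure D3:**
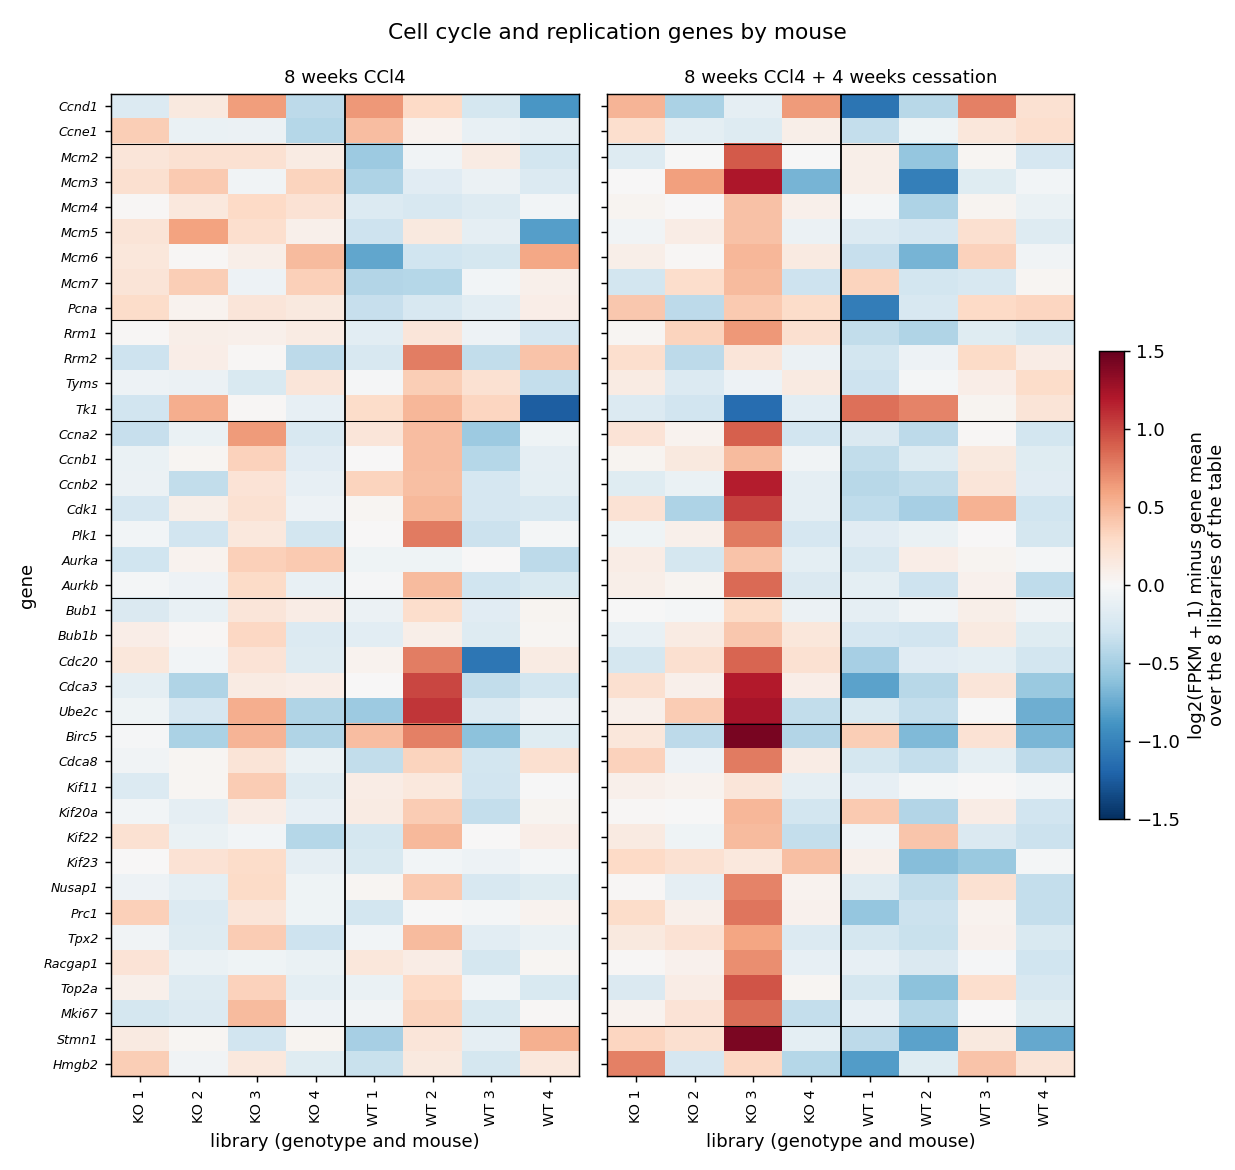
Each row is one member and each column one mouse, knockout (KO) left of wild type (WT), at 8 weeks (left panel) and after cessation (right panel). Colour gives the deviation of log2(FPKM + 1) from the mean of the row within the panel, and thin lines part the groups of genes by role. The column of knockout mouse 3 after cessation is dark red for most mitosis genes, while at 8 weeks wild-type mouse 2 holds the highest level of 15 of 24.

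Cdca8, borealin, and Prc1 and Kif23, which build the central spindle, were the mitosis genes without overlap after reversal. Cdca8 (chr4:124918465-124939311, mm10, minus strand), a member of the chromosomal passenger complex, had 1.49, 0.86, 2.36 and 1.11 FPKM in knockout mice and 0.63, 0.52, 0.76 and 0.49 FPKM in wild-type mice. The difference was 0.58 ± 0.18 (SE, limma adjusted p = 0.52), and 0.42 without knockout mouse 3. Kif23 (chr9:61915905-61946774, mm10, minus strand), the kinesin of centralspindlin, had 1.66, 1.52, 1.4 and 1.96 FPKM in knockout mice and 1.27, 0.39, 0.47 and 1.12 FPKM in wild-type mice. It was the one mitosis gene for which knockout mouse 4, and not mouse 3, was the highest library, and its difference was 0.57 ± 0.18 (SE, limma adjusted p = 0.54). Prc1 (chr7:80294450-80316259, mm10, plus strand), which cross-links microtubules between the separating chromosomes, had 1.36, 1.06, 2.40 and 1.04 FPKM in knockout mice and 0.31, 0.56, 1.02 and 0.52 FPKM in wild-type mice. Knockout mouse 4 was just above wild-type mouse 3, and the difference was 0.61 ± 0.20 (SE, limma adjusted p = 0.54). Prc1 shares 911 exon bases with Rccd1 on the other strand and Cdca8 shares 232 with a neighbour on the other strand. Kif20a (1271 bases), Ccnd1 (1100), Ube2c (592) and Ccna2 (510) also share exon bases with a neighbour on the other strand. The same holds for Mcm7, Nusap1, Plk1, Kif22, Tk1 and Cdc20. The strand setting of the counting is not given in the sources used here, so reads of such pairs cannot be told apart.

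Cdca3 and Ube2c, which belong to the control of entry into and exit from mitosis, had the 2 highest mitotic differences after reversal. Cdca3, linked to entry into mitosis, had 3.81, 3.28, 8.25 and 3.36 FPKM in knockout mice and 1.34, 2.04, 3.63 and 1.76 FPKM in wild-type mice. Wild-type mouse 3 lay within the knockout range, and the difference was 0.80 ± 0.29 (SE, limma adjusted p = 0.55), or 0.54 without knockout mouse 3. Ube2c had 3.58, 4.66, 9.18 and 2.34 FPKM in knockout mice and 2.70, 2.37, 3.32 and 1.60 FPKM in wild-type mice, with overlap. Cdc20 had 0.55, 1.19, 2.42 and 1.18 FPKM in knockout mice and 0.32, 0.66, 0.68 and 0.54 FPKM in wild-type mice, and only knockout mouse 1 lay within the wild-type range. Of the spindle checkpoint genes, Bub1 averaged 0.268 ± 0.158 FPKM in knockout and 0.195 ± 0.0755 FPKM in wild-type livers (SD, n = 4 each). Bub1b averaged 0.477 ± 0.214 FPKM in knockout and 0.205 ± 0.167 FPKM in wild-type livers, and both were under the filter.

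Mitotic cyclins and kinases were higher for 7 of 7 genes after reversal as deposited, and knockout mouse 3 was the highest library for each. Cdk1 had 4.17, 2.24, 8.09 and 3.05 FPKM in knockout mice and 2.43, 2.14, 5.41 and 2.62 FPKM in wild-type mice, where mouse 3 was the highest of each genotype. Ccnb2 had 1.03, 1.14, 4.2 and 1.10 FPKM in knockout mice and 0.73, 0.78, 1.61 and 1.05 FPKM in wild-type mice. Without knockout mouse 3 the remaining knockout mice were within the wild-type range for Ccnb2. Aurkb, the kinase of the passenger complex, had 0.77, 0.71, 1.98 and 0.43 FPKM in knockout mice and 0.50, 0.34, 0.74 and 0.28 FPKM in wild-type mice. Aurka had the smallest mitotic difference, 0.07 ± 0.17 (SE, limma adjusted p = 0.95). It was below 0 after either scaling.

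Genes of chromosome structure and the spindle were higher for 12 of 12, although Kif22 was lower after quantile normalization and Birc5, Kif20a and Kif22 were lower without knockout mouse 3. Mki67 had 1.24, 1.48, 2.85 and 0.68 FPKM in knockout mice and 0.98, 0.60, 1.16 and 0.90 FPKM in wild-type mice, so that knockout mice 1 to 3 were above, and mouse 4 within, the wild-type range. Top2a, the topoisomerase that untangles sister chromatids, had 1.56, 2.21, 4.73 and 2.02 FPKM in knockout mice and 1.47, 0.94, 2.54 and 1.51 FPKM in wild-type mice. Top2a overlapped as well, and the differences were 0.37 ± 0.23 for Mki67 and 0.43 ± 0.26 for Top2a (SE, limma adjusted p = 0.70 and 0.69). Birc5 was at 10.9 FPKM in knockout mouse 3, between 2.27 and 4.01 FPKM in the other 3 knockout mice and between 1.77 and 4.73 FPKM in wild-type mice. Tpx2, which activates Aurora A on the spindle, averaged 0.725 ± 0.392 FPKM in knockout and 0.31 ± 0.164 FPKM in wild-type livers (SD, n = 4 each). The 3 kinesins Kif11, Kif20a and Kif22 had differences of 0.09, 0.12 and 0.09, and Nusap1, a spindle protein, averaged 0.943 ± 0.585 FPKM in knockout and 0.507 ± 0.310 FPKM in wild-type livers. Racgap1, the partner of Kif23, averaged 0.853 ± 0.519 FPKM in knockout and 0.443 ± 0.120 FPKM in wild-type livers. Stmn1, a microtubule-destabilizing protein, had the highest difference of all members, 0.91 ± 0.33 (SE, limma adjusted p = 0.55), with 13.25, 12.5, 29.4 and 9.27 FPKM in knockout mice and 7.66, 5.53, 11.6 and 5.70 FPKM in wild-type mice. Only knockout mouse 4 was below a wild-type mouse (mouse 3). Hmgb2, a chromatin protein, overlapped throughout at 4.35 ± 2.05 FPKM in knockout and 3.66 ± 1.61 FPKM in wild-type livers.

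The replication genes were split after reversal. The 6 Mcm genes were higher as deposited (median 0.32, range 0.07 to 0.57), but Mcm7 was lower after either scaling, and without knockout mouse 3 the median was 0.15 with 5 of 6 higher. Knockout mouse 3 was the highest library for all 6. Mcm3 had 3.86, 6.42, 10.2 and 2.00 FPKM in knockout mice and 4.17, 1.39, 3.29 and 3.72 FPKM in wild-type mice, so that the groups overlapped, unlike at 8 weeks. Pcna had 20.6, 11.4, 20.5 and 18.8 FPKM in knockout mice and 6.97, 12.8, 19.1 and 19.4 FPKM in wild-type mice, again with overlap. Ccnd1 had 20.1, 9.68, 12.5 and 22.2 FPKM in knockout mice and 5.96, 10.2, 24.1 and 16.4 FPKM in wild-type mice, and Ccne1 averaged 0.647 ± 0.238 FPKM in knockout and 0.65 ± 0.299 FPKM in wild-type livers (SD, n = 4 each).

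Rrm1 and Tk1, of nucleotide supply, had the smallest unadjusted p of the members after reversal, in opposite directions. Rrm1 (chr7:102441695-102469771, mm10, plus strand) had 6.77, 8.64, 11.02 and 8.04 FPKM in knockout mice and 4.90, 4.59, 5.71 and 5.37 FPKM in wild-type mice. The groups did not overlap, and the wild-type mice lay close together. The difference was 0.63 ± 0.16 (SE, limma unadjusted p = 0.0028, adjusted p = 0.50), and 0.52 without knockout mouse 3. Tk1 (chr11:117815526-117826092, mm10, minus strand) had 17.2, 16.2, 8.52 and 17.7 FPKM in knockout mice and 36.1, 34.05, 20.5 and 22.9 FPKM in wild-type mice. Every knockout mouse was below every wild-type mouse, and knockout mouse 3, the highest for most members, was the lowest for Tk1. The difference was -0.90 ± 0.26 (SE, limma unadjusted p = 0.0070, adjusted p = 0.50), and -0.67 without knockout mouse 3. Tk1 shares 83 exon bases with Afmid, a gene of tryptophan breakdown on the other strand. Afmid had 42.4, 19.7, 8.99 and 45.6 FPKM in knockout mice and 20.9, 54.3, 59.05 and 38.8 FPKM in wild-type mice after reversal, and its part in the Tk1 values was not tested. Rrm2 averaged 1.86 ± 0.551 FPKM in knockout and 1.91 ± 0.482 FPKM in wild-type livers (SD, n = 4 each). Tyms averaged 7.42 ± 0.936 FPKM in knockout and 7.58 ± 1.45 FPKM in wild-type livers.

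**Figure D4:**
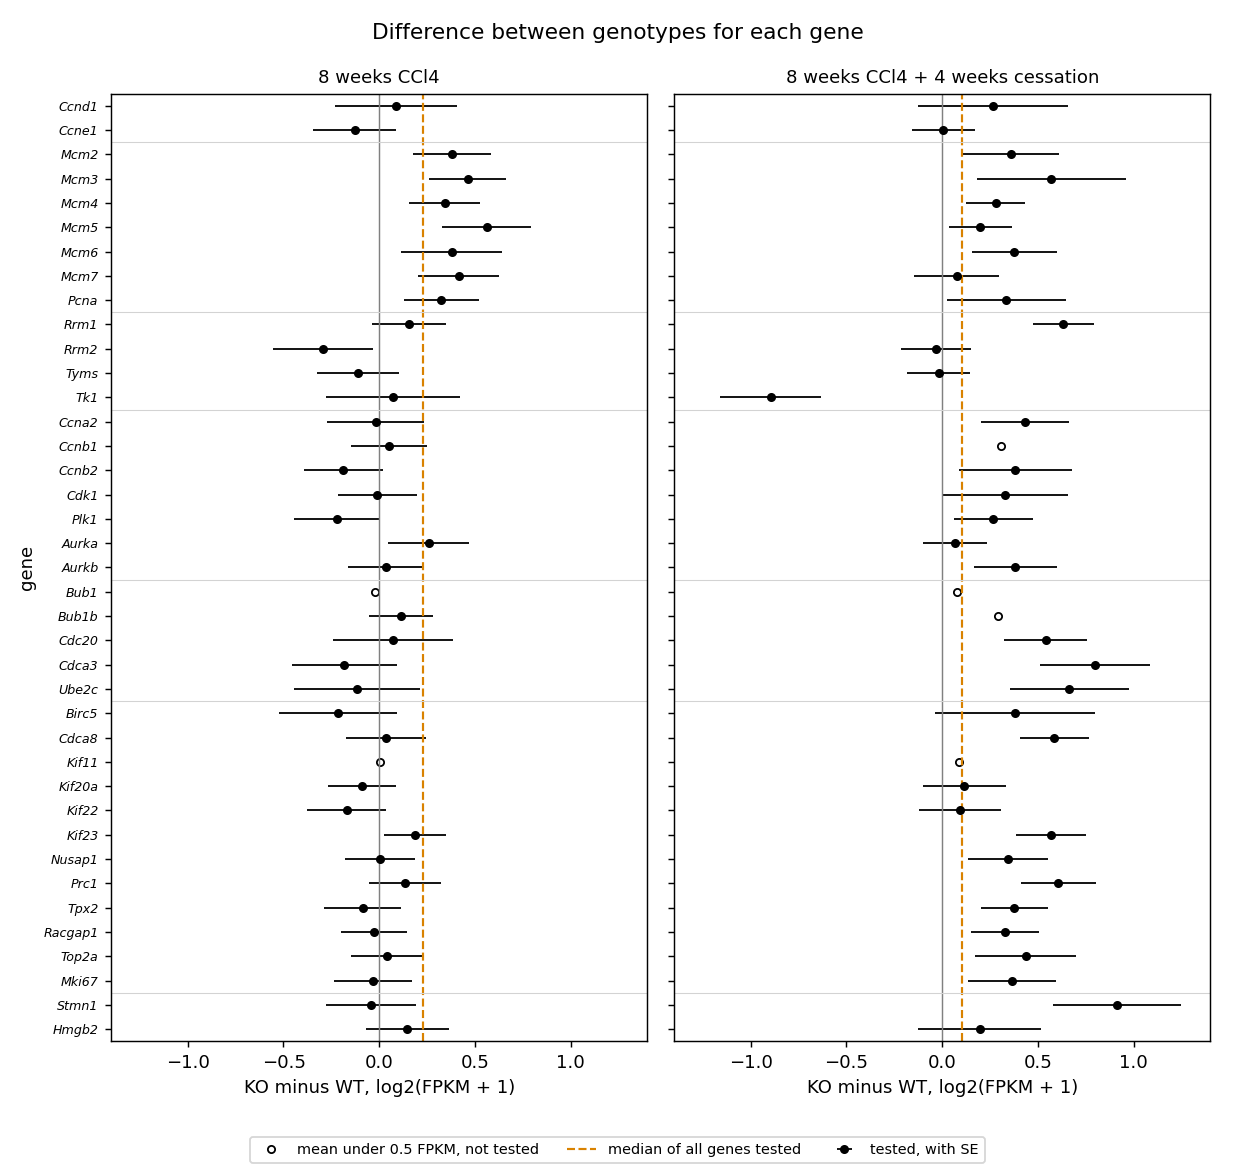
Knockout minus wild type on the log2(FPKM + 1) scale for each member at 8 weeks (left) and after cessation (right). Filled points are tested genes with their SE, open points are genes with a mean under 0.5 FPKM, and the dashed line is the median of all genes tested (0.23 and 0.10). At 8 weeks the Mcm genes, Pcna and Aurka lie to the right of that line, and after cessation most members do, with Tk1 far to the left.

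After reversal no marker of any cell type list passed an adjusted p of 0.05, and of 7 neutrophil markers tested 0 had an unadjusted p under 0.05. Summed neutrophil markers were 144, 148, 713 and 105 FPKM in knockout mice 1 to 4, against 139, 64.98, 341 and 99.2 FPKM in wild-type mice 1 to 4, with 7 of 7 tested genes higher, also after either scaling, and none at 0 in all libraries. The genotypes overlapped, and mouse 3 was the highest of each genotype for neutrophil markers and also for the mitosis score (0.74 in knockout mouse 3 and 0.05 in wild-type mouse 3). Camp, a granule protein of immature neutrophils, was at 47.7 FPKM in knockout mouse 3 and 19.98 FPKM in wild-type mouse 3, and between 1.09 and 5.95 FPKM in the other 6 mice. Summed macrophage and monocyte markers were 513 to 918 FPKM in knockout and 301.1 to 423 FPKM in wild-type livers, without overlap, with 11 of 13 rows higher. Summed hepatocyte markers were 52610 FPKM in knockout mouse 3 and 79554 to 102183 FPKM in the other 7 mice. Mitochondrial transcripts held 37.5% of the FPKM in knockout mouse 3, 38.1% in wild-type mouse 1 and 23.5% to 32.4% in the others. Summed erythroid markers were 608 to 2254 FPKM in knockout and 1268 to 5177 FPKM in wild-type livers, with 7 of 7 tested genes lower. Summed stellate cell and fibroblast markers were 101 to 154 FPKM in knockout and 53.9 to 104 FPKM in wild-type livers, with 8 of 8 genes higher, and 7 and 6 after the scalings. Beside these marker counts, the share with a higher knockout level among tested genes of any kind was 70.7%. That share became 47.7% (median-ratio) and 47.8% (quantile) after the scalings. The part of these markers in the mitosis values was not tested.

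The genotype differences of the 2 stages were also compared with each other, in an interaction term over the 16 libraries. Of the 35 members tested in both tables, 28 were more positive after reversal, with a median of 0.34, where the median gene was at -0.12. After the scalings 30 of 34 were more positive, with medians of 0.43 (median-ratio) and 0.46 (quantile). The median gene was then at 0.032 and -0.0054. The share of all genes that were more positive was not counted, so these counts of members have no share beside them. None passed an adjusted p of 0.05, nor did any of 10647 genes (0%). With no adjustment, 2 members had p under 0.05 and were more positive after reversal, against 0.761% of all genes, and 0 were more negative, against 2%. Cdca3 differed by 0.80 after reversal and by -0.18 at 8 weeks, a change of 0.98 ± 0.42 (SE, limma adjusted p = 1.00). Stmn1 differed by 0.91 and by -0.04, a change of 0.96 ± 0.41 (SE, limma adjusted p = 1.00). The stages lie in separate tables, and stage, table and library preparation cannot be told apart, so no level was compared between stages.

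Genes of the same pathways outside the 39 were counted from 4 further lists, none of whose genes passed an adjusted p of 0.05. Of the other replication genes that could be tested, the knockout was higher for 31 of 35 at 8 weeks (median 0.20), and for 14 of 35 after median-ratio scaling and 13 of 36 after quantile normalization. After reversal it was higher for 27 of 33 (median 0.18), and for 25 of 33 and 23 of 34 after these scalings. Of other mitosis genes, such as kinetochore and condensin subunits, 21 of 27 were higher at 8 weeks (median 0.22), and 10 of 27 and 11 of 27 after the scalings. After reversal the counts were 22 of 23 (median 0.28), and 18 of 23 and 17 of 24 after the scalings. As deposited, all of these shares stand beside 82.6% of all genes at 8 weeks and 70.7% after reversal. After median-ratio scaling and quantile normalization the shares of all genes were 46.8% and 49.5% at 8 weeks, and 47.7% and 47.8% after reversal. Of other cyclins, kinases and E2F-Rb factors, 23 of 26 were higher at 8 weeks (median 0.19), and 12 of 26 after either scaling. After reversal 21 of 24 were higher (median 0.15), and 14 of 23 and 12 of 23 after the scalings, with medians of 0.064 and 0.0080. Of CDK inhibitors, which hold the cycle back, 5 of 7 were higher at 8 weeks and 2 of 7 after either scaling. After reversal the counts were 6 of 7, and 6 of 7 and 5 of 7 after the scalings.

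The gene with the smallest p of each list is given for comparison with the members. At 8 weeks Ccnd2, cyclin D2, had 2.79, 1.98, 5.08 and 2.44 FPKM in knockout mice and 1.03, 1.22, 1.12 and 1.63 FPKM in wild-type mice, without overlap (0.81 ± 0.23, SE, limma adjusted p = 0.16). Dck, deoxycytidine kinase, averaged 7.53 ± 3.48 FPKM in knockout and 3.43 ± 0.457 FPKM in wild-type livers (SD, n = 4 each; limma adjusted p = 0.18). Lmnb1, lamin B1 of the nuclear envelope, averaged 2.53 ± 0.334 FPKM in knockout and 1.52 ± 0.302 FPKM in wild-type livers, without overlap (SD, n = 4 each; limma adjusted p = 0.26). These 3 were higher in the knockout, whereas Cdkn2c, the inhibitor p18, averaged 5.23 ± 0.767 FPKM in knockout and 6.51 ± 0.944 FPKM in wild-type livers (SD, n = 4 each; limma adjusted p = 0.51). After reversal Brca2, a DNA repair gene, had 1.87, 2.06, 1.55 and 3.37 FPKM in knockout mice and 2.96, 3.45, 3.74 and 4.77 FPKM in wild-type mice (-0.58 ± 0.19, SE, limma adjusted p = 0.55). It ran against the direction of most replication genes, and only knockout mouse 4 reached into the wild-type range. Cenpm, a centromere protein, averaged 8.19 ± 1.47 FPKM in knockout and 5.39 ± 2.06 FPKM in wild-type livers (SD, n = 4 each; limma adjusted p = 0.55). Cdc25a, a phosphatase that activates cyclin-dependent kinases, averaged 0.84 ± 0.188 FPKM in knockout and 0.505 ± 0.247 FPKM in wild-type livers (SD, n = 4 each; limma adjusted p = 0.61). Cdkn1c, the inhibitor p57, averaged 2.47 ± 0.385 FPKM in knockout and 1.56 ± 0.388 FPKM in wild-type livers (SD, n = 4 each; limma adjusted p = 0.55). Each of the last 3 overlapped between the genotypes.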

How the data were processed

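Bulk RNA sequencing covered 16 mice, each 1 library of frozen liver. The authors deposited 1 table for each stage, and its values were used as FPKM, the unit Cufflinks gives. No header names the unit, and in the reversal table, whose columns sum to 878889 to 959698 (8-week table, 428142 to 478062), TPM over a filtered gene set cannot be told apart from FPKM. HISAT and Cufflinks were used with the build mm10, per the submitters' processing notes. Tool versions, strand setting and annotation were not given in the sources used here, and the read depth behind each value is unknown. The NEBNext Ultra kit was used at 8 weeks, and either it or a VAHTS kit for reversal, per the labels' protocols.

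Genotypes were compared per table on log2(FPKM + 1) in limma 3.58.1 (R 4.3.3). A gene entered where it averaged 0.5 FPKM or more over 8 libraries, with empirical Bayes (trended and robust prior, statmod 1.5.0). Tests were 2-sided, and Benjamini-Hochberg adjusted p-values over each whole table were read at 0.05. The difference between stages was an interaction term over 16 libraries. The steps were tested on simulated data. The labels number separate mice, and mouse numbers were not taken to pair knockout with wild-type libraries. The members and the lists were chosen with earlier results of these data known, so that counts and medians of lists are descriptions. All 39 members are named, and of each other list the text could name 3 genes per stage, by smallest p for pathways and by highest mean FPKM for cell types. Alternatives were a pseudocount of 0.1, no filter, a mean of at least 2 FPKM, the 2 scalings, a replicate block, a plain prior and leaving out mice. Itgam has 2 identifiers in the reversal table, and both were used. Positions are from GENCODE vM21 (mm10) and promoters from RefSeq GRCm38.p6.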

Additional observations from a re-analysis of the deposited data

Results flagged for a closer look

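A mouse was flagged where it lay far from the other 3 of its group, by a cutoff that flags about 1 in 20 sets of independent, normally spread values. The genes share the same mice, so a count over genes cannot be read against that rate. Of 156 sets of 4 mice (39 genes in 4 groups), 11 held such a mouse. Of these, 6 were in knockout mouse 3 after reversal, which had 2.94 FPKM of Mcm2 (the next mouse 1.08), 1.51 of Mcm4 (next 0.96), 4.2 of Ccnb2 (next 1.14), 8.25 of Cdca3 (next 3.81), 1.81 of Nusap1 (next 0.74) and, as the lowest of its group, 8.52 of Tk1 (next 16.2). Wild-type mouse 3 after reversal had 0.93 FPKM of Mcm5 (next 0.43) and 5.41 of Cdk1 (next 2.62). At 8 weeks knockout mouse 3 had 1.01 FPKM of Nusap1 (next 0.562), knockout mouse 1 had 1.28 of Racgap1 (next 0.90) and wild-type mouse 2 had 1.39 of Tpx2 (next 0.675). The libraries of knockout mouse 3 and wild-type mouse 3 after reversal were also the highest of their genotypes for several marker sums. These were the neutrophil, stellate cell and fibroblast, cholangiocyte and erythroid sums, as given above. What sets these 2 libraries apart was not tested.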

How the results depend on the processing

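No member passed an adjusted p of 0.05 in any limma fit within a stage, and the lowest was 0.063 (Mcm6 at 8 weeks without wild-type mouse 4). None passed in the main fit of the difference between stages. In the alternatives to that fit only the count of all genes passing was kept, so members among them are not known. Read depth is unknown and most mitosis genes lie under 3 FPKM. Whether low levels have a part in the spread between mice was not tested. Of 624 values of members under alternatives per stage, 530 kept their direction at 8 weeks and 584 after reversal, and 9 and 24 genes kept it in every one. The cause of the changes was not tested. No paired structure was found by mouse number (correlations of -0.66 to 0.37 between same-numbered mice). With the replicate block 0 genes passed at 8 weeks in place of 1, and no other count of calls changed.

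At 8 weeks the count of genes passing was 3 with a pseudocount of 0.1, 0 after median-ratio scaling, 2 with a plain prior, 2 without wild-type mice 1 and 2, and between 1 and 1465 with one mouse left out (1465 when wild-type mouse 4 was left out, 32 for knockout mouse 2, 4 for wild-type mouse 3, and 2 for wild-type mouse 1 or 2). Members higher in the knockout numbered 9 (median-ratio), 7 (quantile, median -0.24) and 36 (without wild-type mice 1 and 2). Members without overlap numbered 0, 1 and 7 in those fits (2.97%, 3.03% and 8.27% of all genes) and 3 to 5 with one mouse left out (6.62% to 21.5% of all genes). After reversal they numbered 2 after quantile normalization (1.94%) and 4 to 14 with one mouse left out (3.92% to 10.7%), with 11 when knockout mouse 4 was left out (6.62%) and 14 for wild-type mouse 3 (10.7%). For the difference between stages 1 gene passed without the 5 mice that stood apart, and 0 to 1 with one mouse left out (1 when leaving out wild-type mouse 3 or 4 at 8 weeks, or knockout mouse 3 after reversal).

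Differences (log2) that changed sign at 8 weeks were Cdk1 0.0018 and Kif11 -0.0074 with a pseudocount of 0.1. After median-ratio scaling they were Ccnd1 -0.22, Rrm1 -0.11, Tk1 -0.23, Ccnb1 -0.095, Aurkb -0.15, Bub1b -0.023, Cdc20 -0.16, Cdca8 -0.17, Kif11 -0.11, Nusap1 -0.15, Prc1 -0.057, Top2a -0.15 and Hmgb2 -0.13. After quantile normalization they were Ccnd1 -0.085, Rrm1 -0.15, Tk1 -0.18, Ccnb1 -0.18, Aurka -0.044, Aurkb -0.24, Bub1b -0.11, Cdc20 -0.22, Cdca8 -0.24, Kif11 -0.18, Kif23 -0.016, Nusap1 -0.25, Prc1 -0.14, Top2a -0.25 and Hmgb2 -0.14. Without wild-type mice 1 and 2 they were Ccne1 0.068, Tyms 0.0095, Ccna2 0.29, Ccnb2 0.11, Cdk1 0.24, Plk1 0.064, Bub1 0.051, Cdca3 0.23, Ube2c 0.092, Birc5 0.29, Kif20a 0.11, Tpx2 0.085, Racgap1 0.10 and Mki67 0.090. After reversal they were Ccne1 -0.044, Mcm7 -0.054 and Aurka -0.0090 after median-ratio scaling, Ccne1 -0.10, Mcm7 -0.049, Aurka -0.067 and Kif22 -0.054 after quantile normalization, and Mcm5 -0.0074, Mcm7 -0.13, Tyms 0.0079, Ccnb2 -0.038, Plk1 -0.034, Aurka -0.054, Bub1 -0.041, Kif11 -0.012 and Kif22 -0.069 without wild-type mouse 1 and knockout mice 2 and 3. With one mouse left out, the members that changed sign had these ranges at 8 weeks: Ccna2 -0.24 to 0.13, Cdk1 -0.097 to 0.15, Bub1 -0.088 to 0.059, Mki67 -0.20 to 0.074, Tk1 -0.33 to 0.25, Kif11 -0.12 to 0.074, Racgap1 -0.12 to 0.027, Ccnd1 -0.19 to 0.32, Ccnb1 -0.082 to 0.21, Aurkb -0.058 to 0.20, Cdca8 -0.081 to 0.15, Nusap1 -0.095 to 0.13, Top2a -0.069 to 0.14, Stmn1 -0.22 to 0.13, Ube2c -0.32 to 0.22, Tpx2 -0.23 to 0.056, Ccne1 -0.27 to 0.0051, Plk1 -0.37 to 0.0016, Cdca3 -0.33 to 0.12, Kif20a -0.23 to 0.020 and Cdc20 -0.28 to 0.34. After reversal they were Ccne1 -0.11 to 0.090, Hmgb2 -0.050 to 0.37, Rrm2 -0.13 to 0.096, Tyms -0.13 to 0.074, Mcm7 -0.071 to 0.20, Aurka -0.065 to 0.16, Bub1 -0.0044 to 0.12, Birc5 -0.028 to 0.59, Kif20a -0.030 to 0.26, Kif22 -0.052 to 0.25 and Ccnd1 -0.055 to 0.56.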
